A study of Mus musculus with 8 samples.

Results

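The guanylate-binding proteins (Gbp) are a family of large GTPases, and their transcripts were examined in astrocyte cultures from Spp1 knockout and wild-type mice. Members were chosen by name: every gene called Gbp with a number, with or without the letter b. The annotation (GENCODE release M21, build GRCm38) holds 11 such genes, and 9 of them are among the 3624 genes of the authors' deposited table. The listed members are Gbp2, Gbp3 and Gbp5 on chromosome 3 and Gbp4, Gbp6, Gbp8, Gbp9, Gbp10 and Gbp11 on chromosome 5, and the unlisted ones are Gbp2b and Gbp7, both on chromosome 3. The deposited table lists only genes past an adjusted p-value of 0.05 and an absolute log2 fold change of 0.58. A member was therefore seen only if it differed between the genotypes, and an unlisted member has no value here.

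Total RNA was sequenced from primary cultured astrocytes of 2 groups of mice, 4 samples labelled wild type (strain C57BL/6) and 4 labelled Spp1-/- (strain B6.129S6(Cg)-Spp1tm1Blh/J). Cells came from the retinas and optic nerves of pups at postnatal day 1 to 3 and were grown in DMEM/F12 with 10% fetal bovine serum, with no stimulus named in the labels. Spp1 encodes osteopontin, a secreted matrix protein and cytokine, and the knockout carries a targeted allele made in another strain and moved to a C57BL/6 background, as its name records. Separate cultures or litters are not named in the labels, so the deposited p-values may measure technical spread only.

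Interferons, above all interferon gamma, switch on Gbp genes, in part through the transcription factor IRF1. The proteins bind GTP, assemble on membranes and coat pathogen vacuoles and bacteria in the cytosol, which opens them and exposes their contents to inflammasomes. Macrophages and microglia express Gbp genes strongly when activated, and astrocytes express them after exposure to interferon. In the mouse the genes form a cluster on each of the 2 chromosomes named above.

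Values per sample are not analysed here, so each gene has 1 fold change with its deposited standard error, and library depth is unknown. Positive values were taken to mean higher in the knockout, since Spp1 itself stood at -5.90 on the log2 scale (standard error 0.11) in the authors' deposited table. The Y-linked gene Kdm5d was also higher in the knockout (5.91, standard error 0.25) in the authors' deposited table, and the labels give no sex. Sex, strain background and Spp1 genotype cannot be told apart for any gene below.

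The chromosome 5 members are close copies of one another, which bears on how reads can be assigned to them. The first 120 coding bases of the chromosome 5 members, read from the GENCODE transcripts, are shown to make this visible, with capitals at bases that differ from Gbp6.
Gbp6: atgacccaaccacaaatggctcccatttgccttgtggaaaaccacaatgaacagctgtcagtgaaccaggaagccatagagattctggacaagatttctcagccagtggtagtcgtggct
Gbp10: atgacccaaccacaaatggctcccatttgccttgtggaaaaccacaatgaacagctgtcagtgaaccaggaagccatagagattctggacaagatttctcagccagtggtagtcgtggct
Gbp4: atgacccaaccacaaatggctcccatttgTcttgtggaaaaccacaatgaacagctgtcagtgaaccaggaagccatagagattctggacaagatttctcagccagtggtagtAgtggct
Gbp11: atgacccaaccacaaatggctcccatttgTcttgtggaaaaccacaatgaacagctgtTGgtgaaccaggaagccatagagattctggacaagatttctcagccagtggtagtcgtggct
Gbp9: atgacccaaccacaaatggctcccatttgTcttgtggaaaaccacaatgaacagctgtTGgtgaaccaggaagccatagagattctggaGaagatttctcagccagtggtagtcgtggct
Gbp8: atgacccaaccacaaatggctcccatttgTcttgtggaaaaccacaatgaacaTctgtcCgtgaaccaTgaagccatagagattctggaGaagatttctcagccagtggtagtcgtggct
Gbp10 has 0 differences from Gbp6 in this stretch, Gbp4 has 2, Gbp11 has 3, Gbp9 has 4 and Gbp8 has 5. Over the whole coding sequence of 1833 bases Gbp6 and Gbp10 differ at 30 positions (98.4% identity), and their longest run without a difference is 421 bases. The 15 pairs of chromosome 5 members are 90.0% to 98.4% identical over aligned bases (median 90.9%). The 10 pairs on chromosome 3 range from 66.3% to 82.5% (median 67.4%), and the 30 pairs across the chromosomes from 65.8% to 76.5% (median 68.4%).

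**Figure D1:**
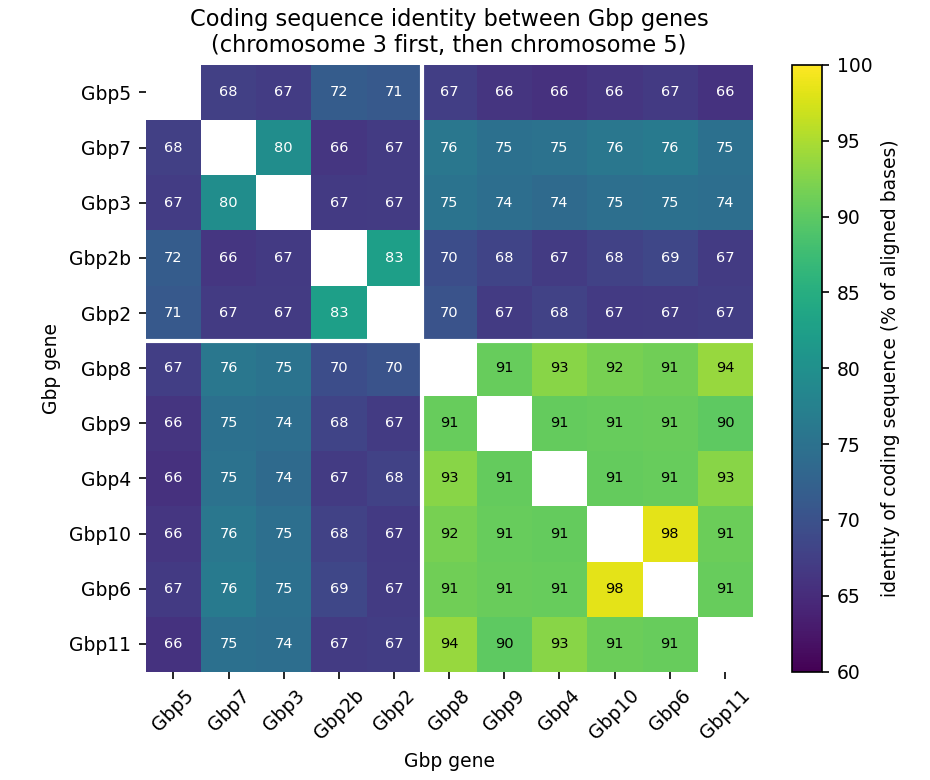
Percent identity of coding sequence over aligned bases for each pair of the 11 annotated Gbp genes, by rows and columns of genes in chromosome order with white lines between chromosome 3 and chromosome 5. The chromosome 5 block lies at 90.0% or above, and Gbp6 with Gbp10 stands out at 98.4%.

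Sequence shared with other genes differed widely between members. Of all stretches of 50 bases in the GENCODE transcripts of Gbp10, 84.1% also occur in transcripts of another gene, most often Gbp6, and for Gbp6 the share is 70.7%. Gbp6 shares the most with Gm43302, an annotated gene on the same strand that overlaps both genes and holds 46.3% of the exonic bases of Gbp10 and 29.0% of those of Gbp6. Gm43302 is not in the authors' deposited table. The shared part was 19.2% for Gbp11, 18.1% for Gbp8, 8.05% for Gbp9 and 7.78% for Gbp4. On chromosome 3 it was 12.7% for the unlisted Gbp7, 3.75% for Gbp3, 2.03% for Gbp2, 1.84% for the unlisted Gbp2b and 1.44% for Gbp5. With stretches of 100 bases the shares stayed high for Gbp10 (73.5%), Gbp6 (64.5%) and Gbp7 (10.0%). They were lower for Gbp11 (5.13%), Gbp8 (4.39%), Gbp9 (1.65%) and Gbp4 (1.64%), and under 1% for Gbp3, Gbp5, Gbp2 and Gbp2b. The sources used here do not give the read length or how reads that match several genes were treated, so the values of Gbp6 and Gbp10 in particular are uncertain as values of single genes. GENCODE also draws Gbp8, Gbp9 and Gbp4 from a common first exon region, where they share 60 or 61 exonic bases.

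Promoter sequences from RefSeq (GRCm38.p6, 250 bases before to 50 after the annotated start) were matched for 5 of the 11 members, Gbp2, Gbp2b, Gbp3, Gbp5 and Gbp7, all on chromosome 3. Those of the 3 listed members are shown because the members moved in the same direction. Capitals mark matches to the core of the interferon-stimulated response element, searched as GAAANNGAA on both strands. All run on the plus strand, at chr3:142620413-142620712 for Gbp2, chr3:142559794-142560093 for the first start of Gbp3 and chr3:142496684-142496983 for Gbp5.
Gbp2: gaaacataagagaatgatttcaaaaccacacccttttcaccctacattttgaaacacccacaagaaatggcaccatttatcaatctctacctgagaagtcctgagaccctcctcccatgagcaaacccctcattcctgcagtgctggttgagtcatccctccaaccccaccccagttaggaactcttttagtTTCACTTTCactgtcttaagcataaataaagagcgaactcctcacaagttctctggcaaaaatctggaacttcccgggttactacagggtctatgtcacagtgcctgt
Gbp3: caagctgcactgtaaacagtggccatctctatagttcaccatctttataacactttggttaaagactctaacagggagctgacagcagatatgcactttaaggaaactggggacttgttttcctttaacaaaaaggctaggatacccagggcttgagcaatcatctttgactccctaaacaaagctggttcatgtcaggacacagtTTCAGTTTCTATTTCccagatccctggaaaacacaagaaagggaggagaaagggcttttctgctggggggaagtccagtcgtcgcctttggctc
Gbp5: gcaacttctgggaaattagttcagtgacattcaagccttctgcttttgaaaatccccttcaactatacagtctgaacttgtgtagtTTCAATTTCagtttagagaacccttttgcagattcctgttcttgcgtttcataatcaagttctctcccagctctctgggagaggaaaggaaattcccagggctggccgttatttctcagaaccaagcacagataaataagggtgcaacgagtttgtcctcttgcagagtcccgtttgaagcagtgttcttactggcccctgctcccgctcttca
The match lies at bases -58 to -50 from the start in Gbp2 and at -164 to -156 in Gbp5. Gbp3 has a pair of overlapping matches, at -44 to -36 and -38 to -30. Every match is on the minus strand of the gene. Of the 6 promoter windows of these 5 members, 5 hold the letters, as do 8.56% of all 32851 windows in the table, and the exception is the window of the second Gbp3 start. The unlisted members Gbp7 (-52 to -44) and Gbp2b (-136 to -128) hold a match too. The gamma-activated sequence, searched as TTCNNNGAA, which reads the same on both strands, was found in 2 of the 6 windows, those of Gbp5 and Gbp7, and in 8.30% of all windows. These matches describe letters only, since no binding was measured.

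Of the 11 annotated members 9 were listed, beside 21.8% of an estimated 16600 tested genes and 16.1% of all annotated protein-coding genes. How many annotated genes of the family, or of the lists below, were tested is unknown. Since membership of the table comes from this same contrast, nothing is read from these shares. All 9 were higher in the knockout and 0 were lower, while the whole table splits into 1991 higher and 1633 lower genes. The median log2 fold change of the 9 members was 1.48, a 2.80-fold higher level, beside 1.31 over the 1991 genes listed as higher and 0.66 over all listed genes.

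On chromosome 3, 3 of the 5 annotated members were listed as higher, and Gbp2b and Gbp7 have no value. Gbp2, which is recruited to the vacuole of the parasite Toxoplasma, stood at a log2 fold change of 1.36 (standard error 0.20, adjusted p = 6.55e-11) in the authors' deposited table, a 2.57-fold higher level with a 95% interval of 1.97 to 3.36. The mean normalized count of Gbp2 was 1005 in the authors' deposited table, which implies a mean of 562 in wild type and 1448 in the knockout. Gbp3 stood at 0.84 (standard error 0.31, adjusted p = 0.0263) in the authors' deposited table, with implied means of 486 and 867. Gbp5, a member linked to the NLRP3 inflammasome, stood at 0.75 (0.24, adjusted p = 0.00900) in the authors' deposited table, with implied means of 69.5 and 117. Gbp2 thus had the largest mean count and the largest rise of the 3 listed chromosome 3 members, while Gbp5 lay closest to the fold limit of the table among all 9. The 95% intervals of Gbp3 (1.17-fold to 2.72-fold) and Gbp5 (1.21-fold to 2.34-fold) both overlapped that of Gbp2.

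On chromosome 5 all 6 annotated members rose. The authors' deposited table gave Gbp9 a value of 1.48 (standard error 0.20, adjusted p = 9.56e-12), a 2.80-fold higher level (95% interval 2.12 to 3.69), with implied means of 231 in wild type and 646 in the knockout. Gbp6 had 1.36 (0.25, adjusted p = 4.42e-07) in the authors' deposited table, with implied means of 388 and 998. These were the chromosome 5 members with the highest counts, and their folds were near that of Gbp2. The other 4 members had mean normalized counts under 60 and larger fitted folds. Gbp8 had the largest of the family, 3.07 (0.61, adjusted p = 4.78e-06) in the authors' deposited table, an 8.38-fold higher level (95% interval 3.67 to 19.1) between implied means of 6.36 and 53.3. Gbp10 stood at 2.35 (0.61, adjusted p = 0.000730) in the authors' deposited table, between implied means of 10.8 and 54.7. Gbp4 rose 4.01-fold (95% interval 2.12 to 7.59, adjusted p = 0.000163) in the authors' deposited table, between implied means of 23.7 and 94.9. Gbp11, annotated as a polymorphic pseudogene, a gene whose reading frame is broken in the reference strain but intact in some others, stood at 2.26 (0.93) in the authors' deposited table between implied means of 2.45 and 11.8. Its adjusted p of 0.0478 in the authors' deposited table is close to the limit of the table, and its 95% interval runs from 1.37-fold to 16.9-fold.

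**Figure D2:**
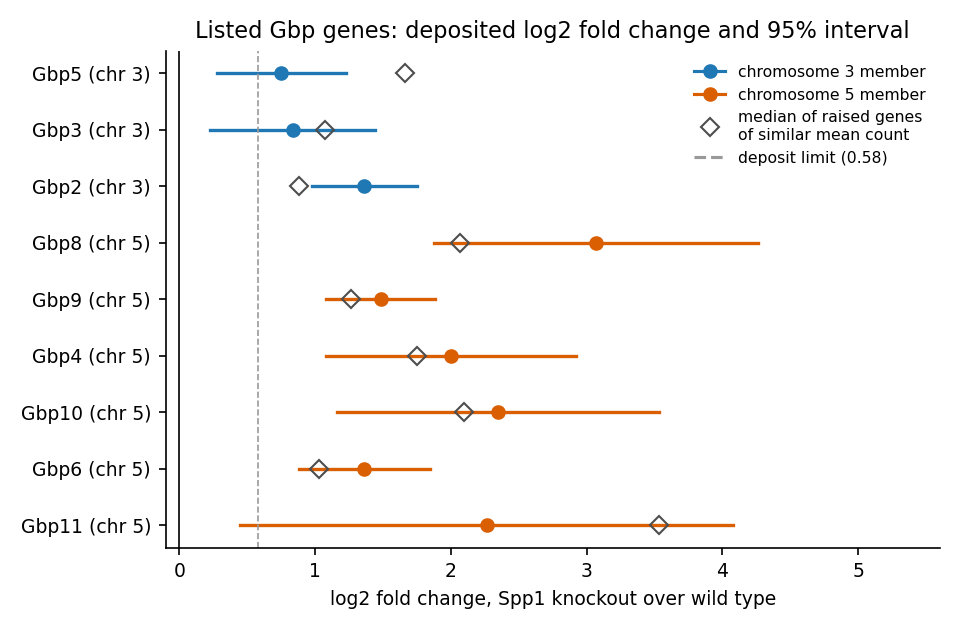
Log2 fold change of knockout over wild type (x axis) for each of the 9 listed Gbp genes (y axis), with bars for the 95% interval from the deposited standard error, diamonds for the median of raised genes with similar mean counts, and a dashed line at the fold limit of the table. All points lie right of 0, from 0.75 for Gbp5 to 3.07 for Gbp8, and the intervals widen for the members with low counts.

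Levels could be set side by side only per length, as implied mean normalized count per kilobase of annotated exon. In wild type Gbp2 stood at 224 per kilobase, Gbp3 at 149, Gbp6 at 65.1 and Gbp9 at 44.7. Gbp5 followed at 10.5, and Gbp4 (3.16), Gbp10 (2.78), Gbp8 (1.85) and Gbp11 (0.91) came last. The order in the knockout was the same down to Gbp5, with 575, 265, 168, 125 and 17.6 per kilobase. After these came Gbp8 at 15.5, Gbp10 at 14.1, Gbp4 at 12.7 and Gbp11 at 4.37. The spread over samples is not analysed here, so neighbours in these orders were not shown to differ. Exon length here is the union over all annotated transcripts, of which these cells need not make all.

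**Figure D3:**
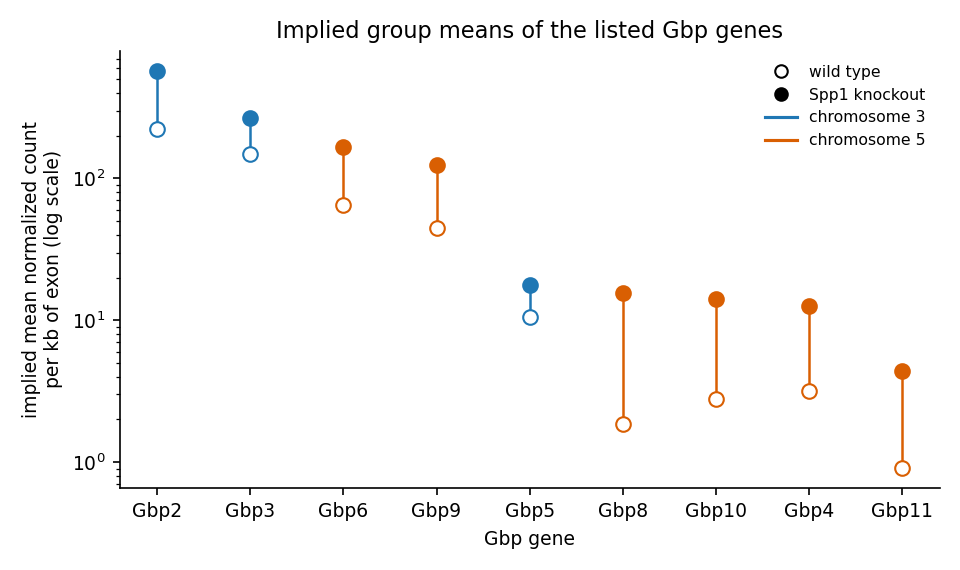
Implied mean normalized count per kilobase of exon (y axis, log scale) in wild type (open) and knockout (filled) for the 9 listed Gbp genes (x axis), coloured by chromosome and ordered by the knockout level. Gbp2 rose from 224 to 575 and Gbp8 from 1.85 to 15.5, so the longest lines belong to genes near the bottom of the scale.

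The fitted folds were larger on chromosome 5. The median log2 fold change was 2.13 for the 6 chromosome 5 members and 0.84 for the 3 listed chromosome 3 members, a difference of 1.30. The chromosome 5 member had the higher fold change in 17 of 18 pairs across the clusters, and the exception was Gbp6 with Gbp2, which were equal to 2 decimals. The 95% intervals overlapped in 15 of the 18 pairs. The other 3 pairs were those of Gbp8, whose interval began at 1.88 on the log2 scale, above the upper ends for Gbp2 (1.75), Gbp3 (1.44) and Gbp5 (1.23). Gbp8 had a mean normalized count of 29.8. The 18 pairs reuse the same 9 genes, and pairs of other listed genes were not counted, so nothing is read from these pair counts. Weighting members by the inverse of the squared standard error reduced the difference between clusters to 0.57, and among the 4 members with a mean count of at least 100 it was 0.32. No test of the difference was possible, because genes of the same samples are not independent and their covariance is not in the table. Summed over listed members, the implied mean rose from 1118 to 2431 on chromosome 3 (2.18-fold) and from 662 to 1859 on chromosome 5 (2.81-fold).

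Standard errors were larger at low mean counts, and so was the smallest absolute log2 fold change listed (2.21 at means under 10, 0.58 at 500 to 2000). Each member was therefore set beside the 100 listed genes closest to it in mean count, of which 44 to 59 were higher. Gbp8 stood 1.00 above the median log2 fold change of its raised neighbours in count (2.07), and 13 of those 55 had a larger value. Gbp2 stood 0.48 above its neighbours' median of 0.88, with 12 of 45 larger. Gbp6, Gbp4, Gbp10 and Gbp9 lay above their medians by 0.33, 0.25, 0.25 and 0.22. Gbp3 lay 0.24 below its median of 1.07, Gbp5 0.91 below 1.66 and Gbp11 1.27 below 3.53. The smallest absolute log2 fold change among the 100 genes beside Gbp11 was 2.21, just under its own 2.26. Set beside genes of like abundance, 5 of 6 chromosome 5 members and 1 of 3 listed chromosome 3 members were above the median of raised genes. For Gbp4 and Gbp10 the distance was below the member's own standard error (0.47 and 0.61), and for Gbp9 (0.20) just above it. For Gbp6, Gbp8 and Gbp2 the distance was larger than it (0.25, 0.61 and 0.20). Among the members below their medians it was smaller than the standard error for Gbp3 (0.31). It was larger for Gbp5 (0.24) and Gbp11 (0.93). Members are not replicates of a cluster, so no difference between clusters is read from this split. The authors' deposited table gave Gbp3 a standard error of 0.31, against a median of 0.20 for its neighbours in count, and Gbp5 one of 0.24 against 0.32.

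**Figure D4:**
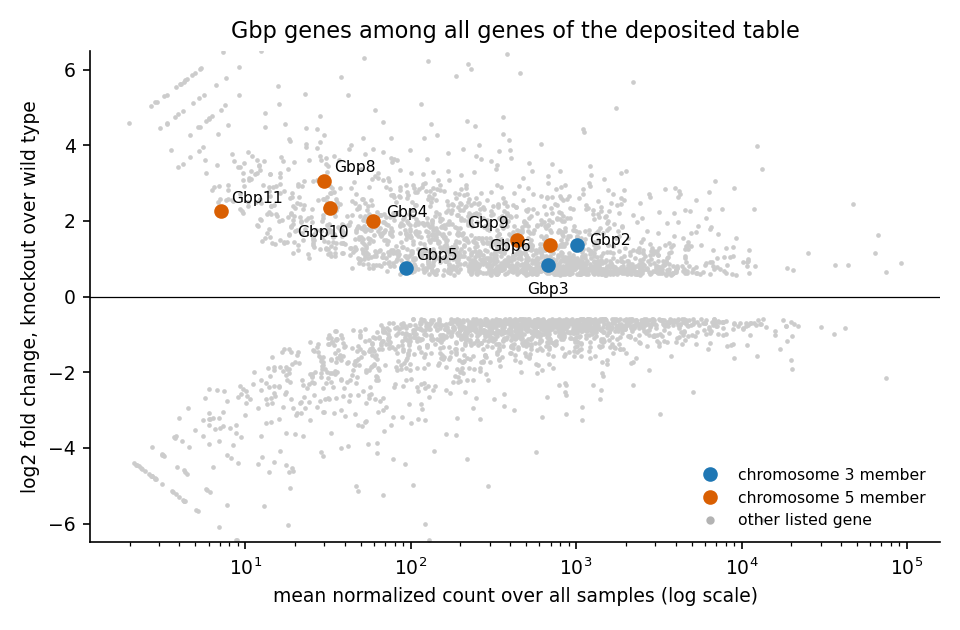
Log2 fold change (y axis) against mean normalized count over all samples (x axis, log scale) for every gene of the deposited table (grey) with the 9 Gbp genes in colour; 14 genes lie outside the y axis. The empty wedge around 0 widens to the left, where Gbp11 sits at its edge, and Gbp2, Gbp6 and Gbp9 sit at similar heights on the right.

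The chromosome 5 cluster lies on the chromosome of the deleted gene, under 1 Mb from it. Spp1 is at chr5:104435118-104441050 on the plus strand, and the cluster spans 332.3 kb on the minus strand at chr5:105014150-105346472. The near ends of its members lie from 573.1 kb (Gbp8) to 882.0 kb (Gbp11) beyond the end of Spp1. The chromosome 3 cluster spans 144.0 kb at chr3:142493978-142638008 on the plus strand. Within 1 Mb of Spp1, 9 other genes were listed, 8 higher and 1 lower, and 6 of them were Gbp genes. Of the 19 other protein-coding genes annotated in that window 3 were listed (15.8%), beside 16.1% of all annotated protein-coding genes. They were Abcg3, a transporter gene 31.4 kb from Gbp8, at 3.69 (standard error 0.83), Hsd17b11, a steroid dehydrogenase gene, at 0.86 (0.11), and Dmp1, a gene for a matrix phosphoprotein related to osteopontin, at -2.50 (0.38) in the authors' deposited table. Around the chromosome 3 cluster, 0 of the 5 other protein-coding genes within 1 Mb and 0 of the 10 within 2 Mb were listed. Around the chromosome 5 cluster, 4 of the 30 within 2 Mb were listed (13.3%). Tgfbr3, a co-receptor for transforming growth factor beta, was the further listed gene within 2 Mb of the chromosome 5 cluster, at 1.73 (0.16) in the authors' deposited table. How much sequence of the donor strain remains beside the targeted allele was not given in the labels, so an effect of that sequence on the chromosome 5 genes, or on read matching there, cannot be told apart from one of the Spp1 deletion.

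**Figure D5:**
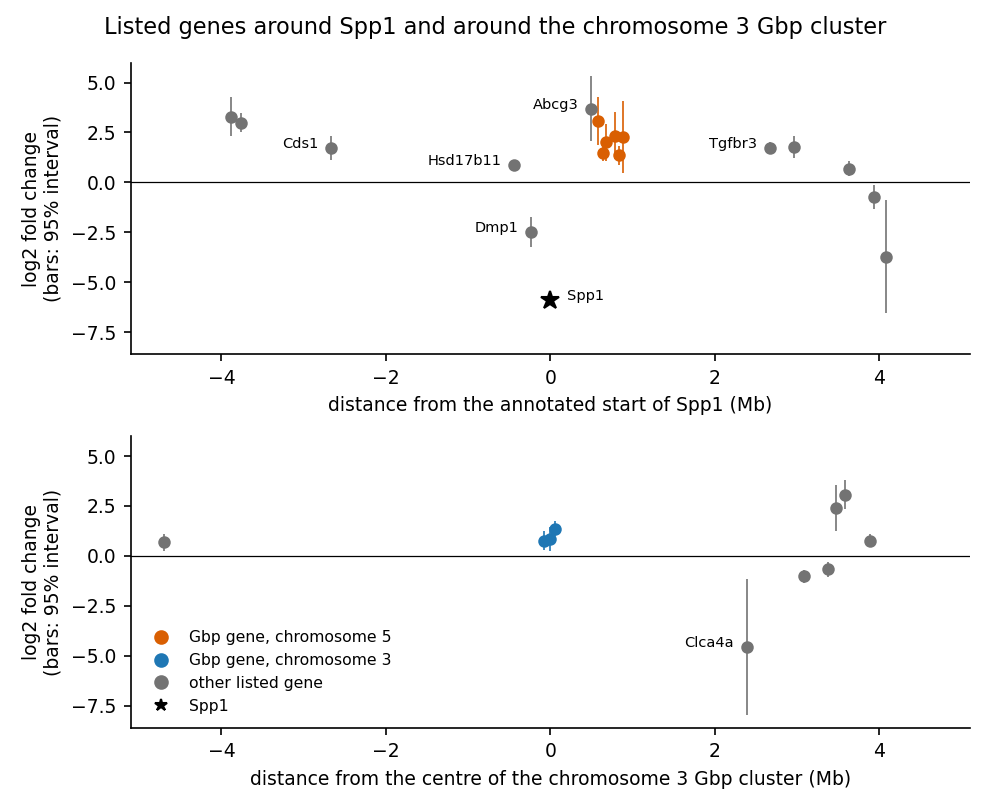
Log2 fold change with 95% interval (y axis) of listed genes within 5 Mb, by distance in Mb from the start of Spp1 (upper) and from the centre of the chromosome 3 Gbp cluster (lower). The 6 chromosome 5 Gbp genes and Abcg3 form a raised group to the right of Spp1, while Dmp1 on its left is lower, and no other listed gene lies within 2 Mb of the chromosome 3 cluster.

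Some other interferon-inducible GTPase genes were listed as higher beside the Gbp genes. Of a list of 25 names for immunity-related GTPases, giant GTPases, Mx proteins and the related atlastins, 18 were in the annotation and 9 of these were listed, beside 21.8% of all genes tested, and the other 9 have no value. All 9 listed genes were higher and 0 lower, and their median was a 3.89-fold rise, with Tgtp2 entered once, by its row of smaller adjusted p. Tgtp1, an immunity-related GTPase that acts on parasite vacuoles, stood at 2.90 (standard error 0.49), and Gvin1, a very large interferon-inducible GTPase, at 2.71 (0.39) in the authors' deposited table. The predicted gene Gm4070 stood at 3.01 (0.39), and 9930111J21Rik1 and 9930111J21Rik2 at 1.66 (0.34) and 1.52 (0.26), in the authors' deposited table. Tgtp2 has 2 rows in the authors' deposited table, at 2.95 (0.49) and 2.47 (0.66), and it is a near copy of Tgtp1, so the values of this pair are uncertain as those of single genes. Irgm2, a regulator of the other immunity-related GTPases, had the smallest rise of the list, 0.85 (0.26), in the authors' deposited table. Summed over these 9 genes, the implied mean rose from 1327 to 4827.

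Of 23 genes for interferons, their receptors, kinases and transcription factors 3 were listed, beside 21.8% of all genes tested, all 3 higher and 0 lower, and their median was 1.89 on the log2 scale. Irf8, a transcription factor of the macrophage lineage, stood at 2.08 (standard error 0.23), and Nlrc5, an activator of class I antigen presentation genes, at 1.89 (0.34) in the authors' deposited table. Stat2, which carries type I interferon signals, stood at 0.76 (0.16) in the authors' deposited table. Ifng and Irf1 are among the 20 unlisted genes, which have no value here.

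Some genes that act with the Gbp proteins in inflammasomes and on vacuoles were listed as higher too. Of 22 names 21 were in the annotation and 9 of these were listed, beside 21.8% of all genes tested, and the other 12 have no value. Of the listed genes 9 were higher and 0 lower, and their median was 1.53 on the log2 scale. The DNA sensor gene Aim2 stood at 2.65 (standard error 0.31), the adaptor gene Pycard at 2.28 (0.41) and the sensor gene Nlrp3 at 1.85 (0.25) in the authors' deposited table. Casp4, which encodes the caspase that senses bacterial lipopolysaccharide, stood at 1.53 (0.29), Casp1 at 1.17 (0.17) and the cytokine gene Il18 at 0.76 (0.22) in the authors' deposited table. Gsdmd, the pore-forming gasdermin gene, and Rnf213, an E3 ligase gene that acts on intracellular bacteria, were also listed as higher.

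Markers of macrophages and microglia moved in the same direction as the Gbp genes. Of 24 markers 23 were listed, beside 21.8% of all genes tested, all 23 higher and 0 lower. The listed markers had log2 fold changes from 0.91 to 4.36 and a median of 2.21. Their summed implied mean rose from 42389 in wild type to 197853 in the knockout, 4.67-fold, while that of the listed Gbp genes rose from 1780 to 4290, 2.41-fold. The part of these cells in the Gbp values was not tested, and in such bulk RNA more cells of a type and more RNA per cell cannot be told apart. Cx3cr1, a chemokine receptor gene of microglia, stood at 2.29 (standard error 0.12) and Mrc1, the mannose receptor gene, at 4.36 (0.13) in the authors' deposited table. Of 12 endothelial markers 4 were listed, beside 21.8% of all genes tested. Of these 2 were higher and 2 lower, with Cdh5 at 1.11 (0.11) and Flt1 at -0.98 (0.26) in the authors' deposited table. Of 10 markers of T and natural killer cells, the main sources of interferon gamma, 0 were listed, beside 21.8% of all genes tested. These markers have no value here. Of 14 astrocyte markers 6 were listed, beside 21.8% of all genes tested, 4 higher and 2 lower. In the authors' deposited table the channel gene Aqp4 stood at 1.15 (standard error 0.16), Aldoc at 1.18 (0.21) and the connexin gene Gjb6 at 4.28 (0.37), while the calcium-binding protein gene S100b stood at -1.82 (0.15) and Pax2, a transcription factor gene of optic nerve astrocytes, at -0.98 (0.26). Gfap, the filament gene that defines astrocytes, had an implied mean of 58314 in wild type and 91923 in the knockout, so the labelled cell type had its marker in both groups.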

How the data were processed

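The file analysed is the authors' deposited table of 1 comparison, knockout over wild type, with 0 columns of per-sample values, so the planned count model could not be fitted and no library depth is known. Per the file headers, the authors gave each gene's normalized count averaged over samples (a signal value), its log2 fold change and standard error, a Wald statistic (a score) and raw and adjusted p-values. Tools in the submitters' processing notes are STAR 2.7, DESeq2 1.30.1 and CASAVA 1.8, with build GRCm38 and no roles; the sources used here do not give the annotation, counting or filters.

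Implied group means came from the mean count and the fold, taking groups as equal in size. Intervals (95%) span 1.96 standard errors on each side. The number of tested genes, 16600 (16592 to 16706 over 20 estimates), was estimated by inverting the Benjamini-Hochberg adjustment at listed genes, a step tested on simulated tables. The table was joined by symbol to GENCODE M21 (3586 of 3624 rows matched). Coding sequences were aligned globally, and shared stretches were counted over all GENCODE transcripts. The members and gene lists were chosen with earlier results of these data known. Genes named are every member, Spp1, up to 6 per list by adjusted p, and the listed neighbours within 1 Mb, with the 5 largest within 2 Mb, of Spp1 or a cluster. Gsdmd, Rnf213, Irgm2, Kdm5d, Ddx3y, Gm43302, Tgtp2's second row and unlisted genes were named after their values were seen. Protein sequences were not used here. Python 3.11.15, pandas 2.3.3 and SciPy 1.17.1 were used.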

Additional observations from a re-analysis of the deposited data

How the results depend on the processing

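No paired analysis was possible because the deposited table holds no values per sample, and for the same reason no sample could be left out. Of 53 alternatives 42 left the value within the limits set for it and 11 moved it, none with a change of direction. Most sets held 0 lower genes from the start, so filtering or weighting could not change their direction, and nothing is read from its stability. The difference between clusters had almost no room to change sign either. The lowest chromosome 5 value (Gbp6) and the highest listed chromosome 3 value (Gbp2) were both 1.36. Nothing is read from the sign of the difference. Keeping genes with a mean count of at least 100 left 4 Gbp genes higher and 0 lower, a cluster median of 1.10 on chromosome 3 and 1.42 on chromosome 5, a difference of 0.32 between clusters and 3 higher genes within 2 Mb of Spp1. The difference between clusters was 0.57 with the weighted mean and 0.94 at an adjusted p of at most 0.01. A window of 5 Mb held 14 higher and 3 lower genes around Spp1 and 7 higher and 3 lower around the chromosome 3 cluster. In the window of 2 Mb around the chromosome 3 cluster, 1 gene was left past an absolute log2 change of 1. Allowing 1 mismatch put the gamma-activated sequence in 5 of 6 Gbp promoter windows and in 71.4% of all windows. Leaving out Gbp8, Gbp11, or Gbp6 with Gbp10, chosen after seeing the data, gave differences between clusters of 1.17, 1.17 and 1.30. Depth limits Gbp8, Gbp10 and Gbp11 most, with implied wild-type means from 2.45 to 10.8.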

Other observations

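Gbp2 and Gbp6, on different chromosomes, had the same log2 fold change to 2 decimals, 1.36, and ranked 960 and 961 of 3624 in the authors' deposited table. Gbp9 ranked 868, and Gbp8, the highest of the family, ranked 190.

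Abcg3, the nearest listed neighbour of the chromosome 5 cluster on the side of Spp1, had a log2 fold change of 3.69 at a mean normalized count of 16.5. This was larger than that of any Gbp gene in the authors' deposited table. On the other side of the cluster the next listed gene was Tgfbr3, 1760.1 kb away.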
